A study of Saccharomyces cerevisiae with 11 samples.

Results

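Nuclear factors that assemble the large (60S) ribosomal subunit were followed in Saccharomyces cerevisiae cells whose small subunit carries a shortened 18S rRNA. The genes are a named set of 55 factors of the nucleolus and nucleus, given by systematic name, chosen without the DEAD-box helicases and the factors of cytoplasmic maturation, although SQT1, a chaperone that works in the cytoplasm, is among them. All 55 were listed in the count tables, of 5756 genes in all. The ΔES7S cells carry rRNA that lacks the expansion segment ES7S (condition plasmid born deltaES7S rRNA sequence), and the WT cells carry the unchanged sequence (plasmid born WT rRNA sequence). Cells of both groups have lost the genomic rDNA and make all rRNA from the plasmid, and both were grown in YPD to an OD of 0.8, so that the WT cells are a plasmid-dependent control and not a laboratory wild type. The strain is called yJD1046 in the sample labels of both groups and yJD1045 in the series description. Ribosome-protected fragments (footprints) were sequenced from 3 ΔES7S and 3 WT libraries, and poly(A)-enriched total mRNA from 3 ΔES7S and 2 WT libraries (WT replicates 2 and 3). Whether replicates come from separate cultures is not stated, so the p-values measure the spread between these libraries, which may be technical.

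The 60S subunit begins in the nucleolus, where RNA polymerase I makes a long precursor rRNA and assembly factors join it in a set order. Early factors fold the domains of the precursor, others remove its spacers or recruit the 5S RNA with its proteins, and GTPases and the giant ATPase Mdn1 then strip factors off as the particle leaves for the nucleoplasm. In yeast the genes for these factors belong to the ribosome biogenesis regulon, which is transcribed together in fast growth and shut down together in stress or starvation. The factors act on the precursor of the large subunit, whereas ES7S lies in the rRNA of the small subunit.

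Library totals ran from 5712239 to 57968667 counts, and the lowest count of any of the 55 genes in any library was 112, so counting error was small beside the spread between libraries. The deleted segment is in rRNA, which these gene counts do not show, so the genotype could not be checked from them. Values are given as counts over the library total, scaled to 1000000 (CPM). Overlap between libraries was judged on these CPM, without the TMM scaling that enters the fold changes. Fold changes were fitted by edgeR with TMM scaling, are log2 of ΔES7S over WT with their standard error (SE), and were called at an adjusted p under 0.05. Such values compare genes within a library, so that fewer transcripts or footprints per cell overall would not be seen.

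Footprints on the 60S assembly genes were lower in ΔES7S. Of the 55 genes, 44 fell and 0 rose, the remaining 11 missing the threshold, with a median log2 fold change of -0.65, a 1.57-fold lower level. Over all 5442 genes tested, 12.6% were lower and 14.2% higher, and the median was 0.00. Of the 55 values 54 were below 0, against 49.9% of all genes. The set was chosen with earlier results of these data known, so these shares describe it and are no test of it. At an unadjusted p under 0.05, 48 of the 55 were lower and 0 higher, and DESeq2 and limma-voom also called 0 higher. In 46 of the 55 genes every ΔES7S library lay below every WT library, a pattern found in 27.3% of all genes tested, and in 0 every one lay above (17.2% of all genes). The 55 genes together took 0.553%, 0.457% and 0.495% of footprint counts in ΔES7S replicates 1 to 3, against 0.767%, 0.721% and 0.925% in WT replicates 1 to 3. The changes lay close together: the quartiles were -0.76 and -0.49, and the whole range ran from -1.08 (RSA4) to 0.19 (MDN1). The number that fell was between 30 and 48 when any 1 library was left out, lowest without ΔES7S replicate 2 (30) and without WT replicate 3 (31).

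**Figure D1:**
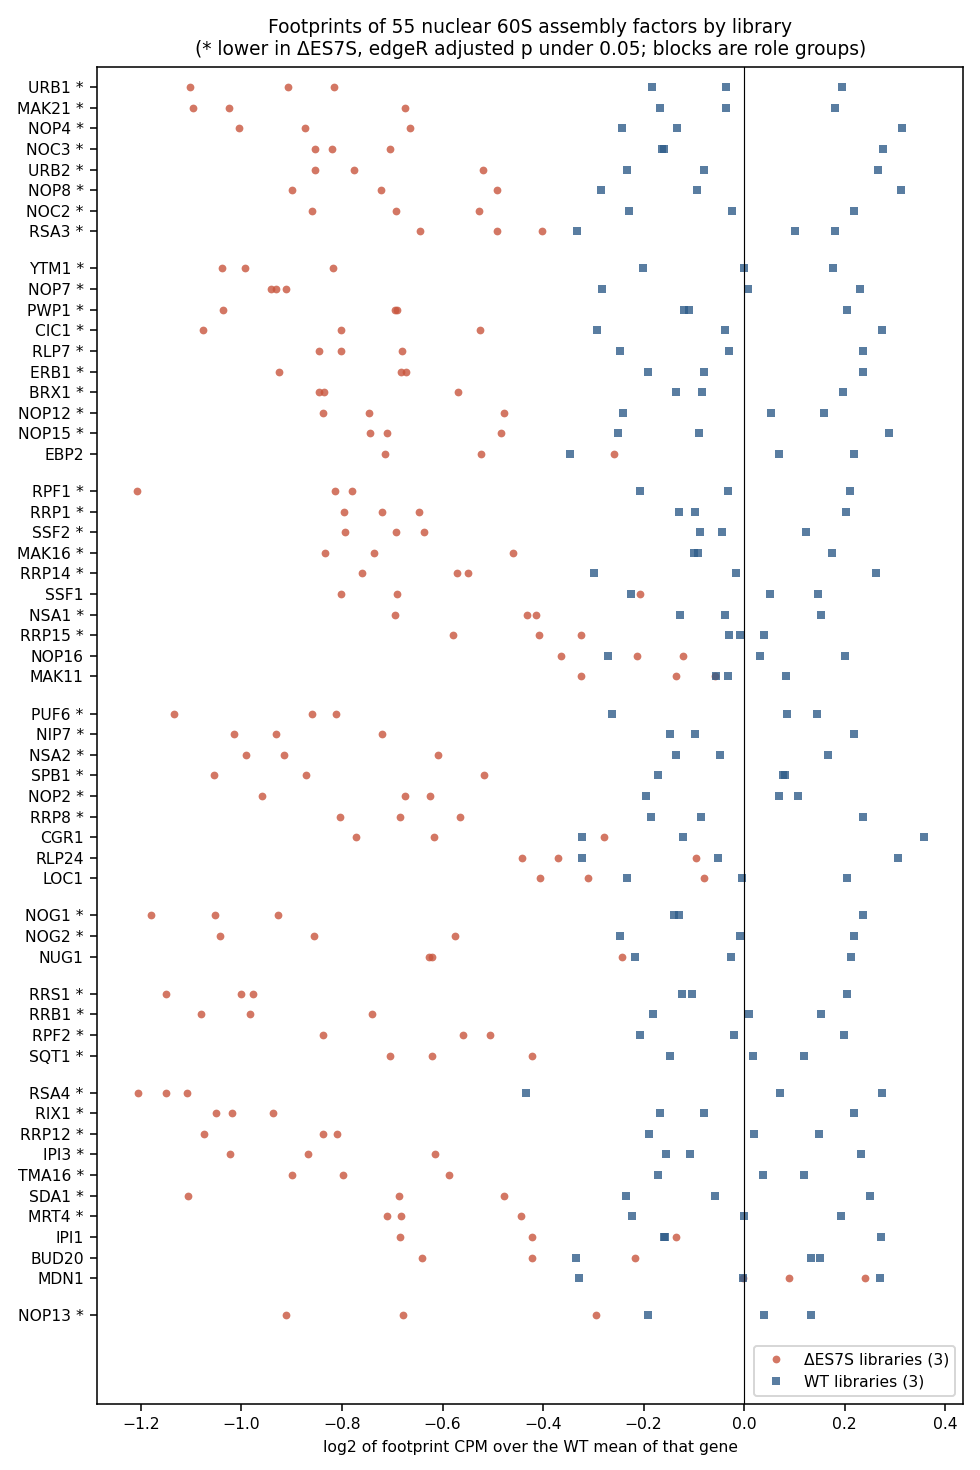
Footprint level of each of the 55 genes in each library, as log2 of its CPM over the mean of the 3 WT libraries of that gene (x axis), in blocks by role from early factors at the top to late factors and NOP13 at the bottom; circles are ΔES7S libraries, squares are WT libraries and a star marks an adjusted p under 0.05. In 46 genes the 3 circles lie left of all 3 squares, and MDN1 is the gene with a fitted change above 0.

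The earliest particle is shaped by the Npa1 complex (URB1, URB2, NOP8 and RSA3) and by the Noc proteins MAK21, NOC2 and NOC3, with the RNA-binding protein NOP4. All 8 of these genes fell in footprints, with a median of -0.68. URB1 (YKL014C), the scaffold of the Npa1 complex, had 33.4, 27.4 and 31.3 CPM in ΔES7S replicates 1 to 3, against 57.3, 51.7 and 67.3 CPM in WT replicates 1 to 3. The 2 groups were well apart, and the log2 fold change was -0.86 ± 0.13 (adjusted p = 0.00133). MAK21, the yeast Noc1, and NOP4 had -0.84 ± 0.14 and -0.76 ± 0.15. NOC2, the partner that Noc1 and Noc3 share, had 143, 114 and 128 CPM in the ΔES7S libraries, against 203, 176 and 241 CPM in the WT libraries (-0.61 ± 0.13). RSA3 (YLR221C) changed the least of the 8, with 63.9, 57.4 and 67.9 CPM in the ΔES7S libraries, against 96.3, 71.3 and 102 CPM in the WT libraries. Its lowest WT library was just above its highest ΔES7S library, and its log2 fold change was -0.43 ± 0.13 (adjusted p = 0.035). The RSA3 call was lost without ΔES7S replicate 2 (adjusted p = 0.143), WT replicate 1 (0.108) or WT replicate 3 (0.149), and that of NOC2 without ΔES7S replicate 2 (0.0522).

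The A3 factors bind the precursor interdependently and are needed for trimming of the first internal spacer. Of the 10 genes in this group 9 fell, 0 rose and 1 (EBP2) did not pass, with a median of -0.69. YTM1 (YOR272W), a substrate of the Mdn1 ATPase, had 74.2, 65.8 and 63.7 CPM in ΔES7S replicates 1 to 3, against 114, 131 and 148 CPM in WT replicates 1 to 3. Its libraries did not overlap between strains, and its log2 fold change was -0.87 ± 0.12 (adjusted p = 0.00114). Its partners NOP7 and ERB1 had -0.85 ± 0.13 and -0.68 ± 0.13. The WD-repeat protein PWP1, the RPL7-like protein RLP7, the RNA-binding proteins CIC1, NOP12 and NOP15 and the Brix-family protein BRX1 lay between -0.72 and -0.56. EBP2 (YKL172W), a binding partner of several of these factors, had 171, 125 and 142 CPM in the ΔES7S libraries, against 215, 161 and 238 CPM in the WT libraries. ΔES7S replicate 1 was above the lowest WT library, and the log2 fold change of -0.41 ± 0.16 did not pass (adjusted p = 0.0791). EBP2 passed without ΔES7S replicate 1 (adjusted p = 0.0147) or WT replicate 2 (0.0416).

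Factors of the solvent side gave a wider spread. Of 10 genes 7 fell, 0 rose and 3 did not pass, with a median of -0.51. RPF1 (YHR088W), a Brix-family protein that sits in 1 module with RRP1, NSA1 and MAK16, had 74.3, 55.3 and 72.7 CPM in ΔES7S replicates 1 to 3, against 125, 111 and 148 CPM in WT replicates 1 to 3. All 3 ΔES7S libraries were lower than all WT libraries, and the log2 fold change was -0.85 ± 0.14 (adjusted p = 0.0021). The other members of the module had -0.64 (RRP1), -0.59 (MAK16) and -0.43 (NSA1), each past the test. RRP14 and RRP15, which neighbour SSF1 in the particle, had -0.55 and -0.36 and passed. NOP16 had -0.15 ± 0.13 and did not pass. MAK11 (YKL021C), a WD-repeat factor, had 70.0, 61.4 and 73.9 CPM in the ΔES7S libraries, against 75.2, 74.0 and 81.5 CPM in the WT libraries. Its libraries did not overlap as CPM, but the gap was small and closed with TMM scaling. The log2 fold change was -0.10 ± 0.10 (adjusted p = 0.512).

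SSF1 and SSF2 are near-identical paralogs of this group, and how reads that match both were counted is not stated, so their separate values are uncertain. SSF2 (YDR312W) had 30.9, 27.7 and 29.8 CPM in the ΔES7S libraries, against 46.6, 45.3 and 52.3 CPM in the WT libraries without overlap, and fell (-0.63 ± 0.11, adjusted p = 0.0026). SSF1 (YHR066W) had 48.5, 32.1 and 34.7 CPM in the ΔES7S libraries, against 47.9, 58.0 and 62.0 CPM in the WT libraries. ΔES7S replicate 1 lay just above the lowest WT library, the other two ΔES7S libraries were lower, and the log2 fold change of -0.46 ± 0.16 did not pass (adjusted p = 0.0597). Without ΔES7S replicate 1 it was -0.68 (adjusted p = 0.00195), and SSF1 also passed by DESeq2 (0.0481) and with upper-quartile scaling (0.0485).

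Factors of the later spacer cleavage and the rRNA methyltransferases included 6 genes of 9 that fell, 0 that rose and 3 that missed the threshold, with a median of -0.67. PUF6 (YDR496C), a Puf-family RNA-binding protein that also represses translation of ASH1 mRNA, had 90.0, 72.0 and 87.0 CPM in ΔES7S replicates 1 to 3, against 168, 132 and 175 CPM in WT replicates 1 to 3. The strains did not overlap, and the log2 fold change was -0.85 ± 0.13 (adjusted p = 0.00159). NIP7 had 97.0, 79.2 and 83.9 CPM in the ΔES7S libraries, against 144, 149 and 186 CPM in the WT libraries (-0.81 ± 0.13), and NSA2 had 156, 126 and 119.6 CPM in the ΔES7S libraries, against 229.9, 216 and 267 CPM in the WT libraries (-0.75 ± 0.13). The methyltransferases SPB1, NOP2 and RRP8, which modify 25S rRNA, had -0.71, -0.67 and -0.61, all past the test. CGR1 and RLP24 (a placeholder for ribosomal protein Rpl24) had -0.47 ± 0.17 and -0.22 ± 0.16 and did not pass. LOC1 (YFR001W), which like PUF6 also serves ASH1 mRNA localisation, had 127, 108 and 101 CPM in the ΔES7S libraries, against 134, 114 and 155 CPM in the WT libraries. Here the strains overlapped, and the log2 fold change was -0.18 ± 0.13 (adjusted p = 0.347).

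The 3 GTPases act at successive checkpoints of the nuclear particle. NOG1 (YPL093W), which occupies the future peptide tunnel, had 110.2, 92.5 and 101 CPM in ΔES7S replicates 1 to 3, against 190.3, 192 and 247 CPM in WT replicates 1 to 3. Every ΔES7S library was far below the lowest WT library, and the log2 fold change was -0.97 ± 0.13 (adjusted p = 0.000929). NOG2, the checkpoint for export, had -0.74 ± 0.15 and passed. NUG1 (YER006W) had 260.4, 200.3 and 199 CPM in the ΔES7S libraries, against 302, 265 and 357 CPM in the WT libraries. ΔES7S replicate 1 came close to the lowest WT library, and the log2 fold change of -0.41 ± 0.15 did not pass (adjusted p = 0.0657). NUG1 passed without ΔES7S replicate 1 (adjusted p = 0.00909) and by DESeq2 (0.0434).

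RPF2 and RRS1 bring the 5S RNA with its proteins to the particle, and RRB1 and SQT1 are dedicated chaperones of the ribosomal proteins Rpl3 and Rpl10. All 4 genes fell. RRS1 (YOR294W) had 89.5, 79.5 and 88.1 CPM in ΔES7S replicates 1 to 3, against 162, 164 and 203 CPM in WT replicates 1 to 3, without overlap (-0.97 ± 0.11, adjusted p = 0.000685). RRB1 and RPF2 had -0.85 ± 0.13 and -0.55 ± 0.13. SQT1 (YIR012W), which works in the cytoplasm, had 182, 171 and 208 CPM in the ΔES7S libraries, against 252, 283 and 303 CPM in the WT libraries. The strains did not overlap, and the log2 fold change was -0.51 ± 0.12 (adjusted p = 0.0119). Its call was lost without ΔES7S replicate 2 (adjusted p = 0.0783) or WT replicate 3 (0.0591).

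Among the late nuclear factors 7 of 10 fell, 0 rose and 3 did not pass, with a median of -0.67. RSA4 (YCR072C), the last substrate that Mdn1 pulls from the particle, had 34.6, 33.7 and 32.4 CPM in ΔES7S replicates 1 to 3, against 55.3, 78.5 and 90.3 CPM in WT replicates 1 to 3. The ΔES7S libraries differed by little among themselves while WT replicate 1 was the lowest WT library, and the log2 fold change was -1.08 ± 0.16 (adjusted p = 0.00143). RIX1 and IPI3, subunits of the complex that docks Mdn1, had -0.93 ± 0.12 and -0.74 ± 0.14, and the third subunit gene IPI1 had -0.34 ± 0.16 and did not pass. RRP12 (export of both subunits), TMA16, SDA1 and MRT4 (a placeholder for the stalk protein P0) fell, by values between -0.83 and -0.53, and the shuttling export factor BUD20 had -0.34 ± 0.16 and did not pass. MDN1 (YLR106C, REA1 in RefSeq), which encodes one of the longest proteins of yeast, had 79.7, 67.4 and 71.8 CPM in the ΔES7S libraries, against 67.4, 53.8 and 81.4 CPM in the WT libraries. The strains overlapped fully, and the log2 fold change was 0.19 ± 0.14 (adjusted p = 0.333). NOP13 (YNL175C), a nucleolar RNA-binding protein whose role is less defined, had 86.2, 66.0 and 56.2 CPM in the ΔES7S libraries, against 109, 92.6 and 116 CPM in the WT libraries. Its libraries did not overlap, with -0.52 ± 0.16 (adjusted p = 0.0326), but its call was lost without ΔES7S replicate 2 (adjusted p = 0.118) or without WT replicate 1 (0.0954), 2 (0.0514) or 3 (0.132).

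The mRNAs of the same genes did not move in 1 direction. By edgeR 0 of 55 were lower and 0 higher, beside 1.57% lower and 1.19% higher of all 5611 genes tested, and the median log2 fold change was -0.02 (all genes -0.01). Of the 55 values 29 were below 0 and 26 above, against 51.0% below 0 over all genes. At an unadjusted p under 0.05, 2 were lower and 7 higher, and DESeq2 called 1 lower and 2 higher and limma-voom 0. By CPM the strains overlapped in 45 genes, with every ΔES7S library below every WT library in 5 genes and above in 5, beside 37.7% and 16.1% of all genes. The TMM factors over all 11 libraries were 1.06, 0.80 and 0.93 in ΔES7S mRNA replicates 1 to 3, against 1.11 and 1.07 in WT replicates 2 and 3. A lower factor raises the scaled level, so these counts depend on the scaling. The 55 genes took 0.676%, 0.465% and 0.453% of mRNA counts in ΔES7S replicates 1 to 3, against 0.554% and 0.624% in WT replicates 2 and 3. The 0 rested on ΔES7S replicate 1, the library with the highest share: without it 15 of the 55 were lower and 5 higher, and 2467 of all genes were called, against 155 with it.

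Single mRNAs differed widely, and none of the following passed the edgeR test on the mRNA libraries. NSA2 passed by DESeq2 (adjusted p = 0.0388), and in the joint fit of all 11 libraries NSA2 (0.0300), NOG1 (0.0494) and NOC2 (0.0253) passed. NOG1 mRNA had 305, 382 and 295 CPM in ΔES7S replicates 1 to 3, against 258 and 267 CPM in WT replicates 2 and 3, higher in every ΔES7S library (0.54 ± 0.23, adjusted p = 0.168). NSA2 mRNA had 147, 149.7 and 143 CPM in ΔES7S, against 119 and 119 CPM in WT, again without overlap (0.50 ± 0.16, adjusted p = 0.104). NOC2 had 145, 92.5 and 89.1 CPM in ΔES7S, against 65.4 and 91.5 CPM in WT and overlapped as CPM, though not after TMM scaling (0.65 ± 0.23, adjusted p = 0.117). RRS1 mRNA overlapped between strains, with 77.0, 67.1 and 57.4 CPM in ΔES7S, against 71.5 and 76.6 CPM in WT (0.06 ± 0.16). RSA4 mRNA overlapped as well, with 65.6, 59.4 and 46.8 CPM in ΔES7S, against 62.4 and 62.9 CPM in WT (0.07 ± 0.18). On the low side were PWP1 (-0.97 ± 0.37), RRP12 (-0.92 ± 0.44), NOG2 (-0.79 ± 0.26), SQT1 (-0.71 ± 0.46) and TMA16 (-0.68 ± 0.30), the 5 genes lower in footprints whose mRNA value was below -0.5. SQT1 mRNA had 139, 33.1 and 49.1 CPM in ΔES7S replicates 1 to 3, against 128 and 136 CPM in WT replicates 2 and 3. Its ΔES7S replicate 1 was as high as WT and the other two ΔES7S libraries were far lower. Without ΔES7S replicate 1 SQT1 passed with -1.42 (adjusted p = 0.00159), and RSA3 (-0.56, adjusted p = 0.0217), SSF2 (-0.68, 0.0346), NOG1 (0.66, 0.0373), NSA2 (0.58, 0.0133) and NIP7 (0.45, 0.0495) passed as well.

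**Figure D2:**
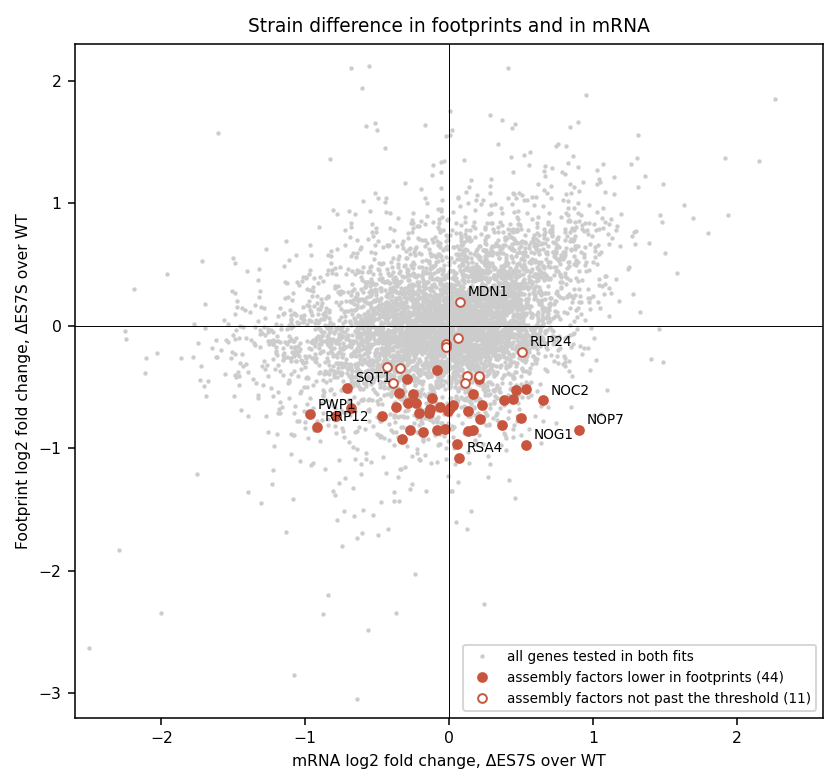
Log2 fold change of ΔES7S over WT in mRNA (x axis) and in footprints (y axis); grey points are all genes tested in both fits, filled circles the 44 assembly genes that fell in footprints and open circles the 11 that did not pass. The assembly genes form a band below 0 on the y axis (median -0.65) that is spread to both sides of 0 on the x axis (median -0.02).

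The size of the footprint change was set beside the size of the mRNA change gene by gene. Across the 55 genes the log2 fold changes in footprints and mRNA had r = 0.03 and rho = 0.01, a description over genes that share the same libraries. The mRNA values had the wider spread, with an SD of 0.39 over the 55 genes against 0.24 for footprints, and the median SE was 0.20 in mRNA and 0.13 in footprints.

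**Figure D3:**
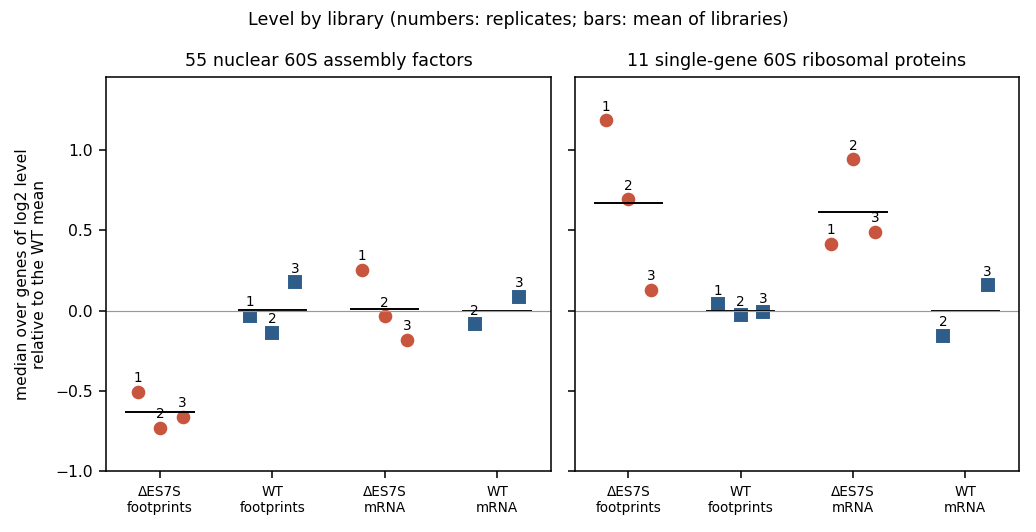
Median over genes of the log2 level in each library relative to the WT mean of the same assay (y axis, TMM-scaled CPM), for the 55 assembly genes (left) and 11 single-gene 60S ribosomal proteins (right); circles are ΔES7S, squares WT, numbers are replicates and bars are means of libraries. Assembly gene footprints lie at -0.50, -0.73 and -0.66 in ΔES7S replicates 1 to 3 and between -0.14 and 0.18 in WT, whereas their mRNA medians overlap between strains.

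Translation efficiency, the footprint change relative to the mRNA change, was tested as the interaction of assay and strain over all 11 libraries. It fell in 15 of the 55 genes, rose in 0 and did not pass in 40, beside 4.33% lower and 4.63% higher of all 5588 genes tested. The median log2 difference was -0.64 (all genes -0.01), and 49 of the 55 values were below 0 (50.4% of all genes). At an unadjusted p under 0.05, 33 were lower and 0 higher, and DESeq2 called 25 lower and limma-voom 14, with 0 higher in both. All 15 had also fallen in footprints, and all 15 had an mRNA fold change above 0. These comparisons share libraries, so the values stand side by side and are no separate evidence. With 2 WT mRNA libraries the number rested on single libraries: it was 0 without WT mRNA replicate 2, 1 without WT mRNA replicate 3, 4 without WT footprint replicate 3, 4 without ΔES7S footprint replicate 2, and 25 lower with 3 higher without ΔES7S mRNA replicate 1. The median stayed between -0.75 and -0.52 in all of these fits.

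The differences past the test were led by NOG1 at -1.55 ± 0.27 (adjusted p = 0.0124). NSA2 had -1.30 ± 0.22, NOC2 -1.30 ± 0.26, NIP7 -1.22 ± 0.23, RSA4 -1.19 ± 0.26 and NOP13 -1.10 ± 0.29, with adjusted p from 0.0115 to 0.0372. For NIP7, a factor that binds next to the methyltransferase NOP2, mRNA was 124, 133 and 117 CPM in ΔES7S, against 108 and 116 CPM in WT, higher in every ΔES7S library, while its footprints were lower in every one. NOP13 mRNA had 163, 168 and 125 CPM in ΔES7S, against 109.7 and 133 CPM in WT and overlapped as CPM. With TMM scaling its log2 levels against the WT mean were 0.48, 0.92 and 0.29 in ΔES7S, all above the -0.16 and 0.16 in WT. The other 9 genes that fell were NOP12, RRS1, RPF1, MRT4, URB1, RRP8, NOP4, RRP1 and NOP2, between -1.08 and -0.72. The 15 genes past the test come from every role group: 3 of 8 early factors, 1 of 10 A3 factors, 2 of 10 solvent-side factors, 4 of 9 later cleavage factors and methyltransferases, 1 of 3 GTPases, 1 of 4 genes for the 5S particle and chaperones, 2 of 10 late factors and NOP13. In this order and without NOP13, the group medians were -0.78, -0.72, -0.45, -0.77, -0.66, -0.48 and -0.17. The late factors had an mRNA median of -0.33, with 7 of 10 values below 0. The 5S particle and chaperone genes had an mRNA median of -0.26, and the other groups without NOP13 lay between -0.00 and 0.21. All 6 named calls were lost without WT mRNA replicate 2, with adjusted p from 0.0849 (NSA2) to 0.172 (NOP13). Without WT mRNA replicate 3, NOG1, NSA2 and NIP7 had an adjusted p of 0.0537, RSA4 0.0835 and NOP13 0.0872, and NOC2 kept its call. NOC2 lost it without ΔES7S footprint replicate 2 (0.0591) or WT footprint replicate 3 (0.052), and RSA4 without ΔES7S footprint replicate 2 (0.0647) or WT footprint replicate 2 (0.0548) or 3 (0.0661). URB1 and RPF1 lost theirs without ΔES7S footprint replicate 2 (0.0545 and 0.0511), WT footprint replicate 3 (0.0505 and 0.0515) or WT mRNA replicate 3 (0.0537 and 0.0638), and RRS1 without WT mRNA replicate 3 (0.0537). NOP13 lost it also without ΔES7S mRNA replicate 2 (0.0599) and without any 1 footprint library other than ΔES7S replicate 1, with adjusted p up to 0.0961.

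**Figure D4:**
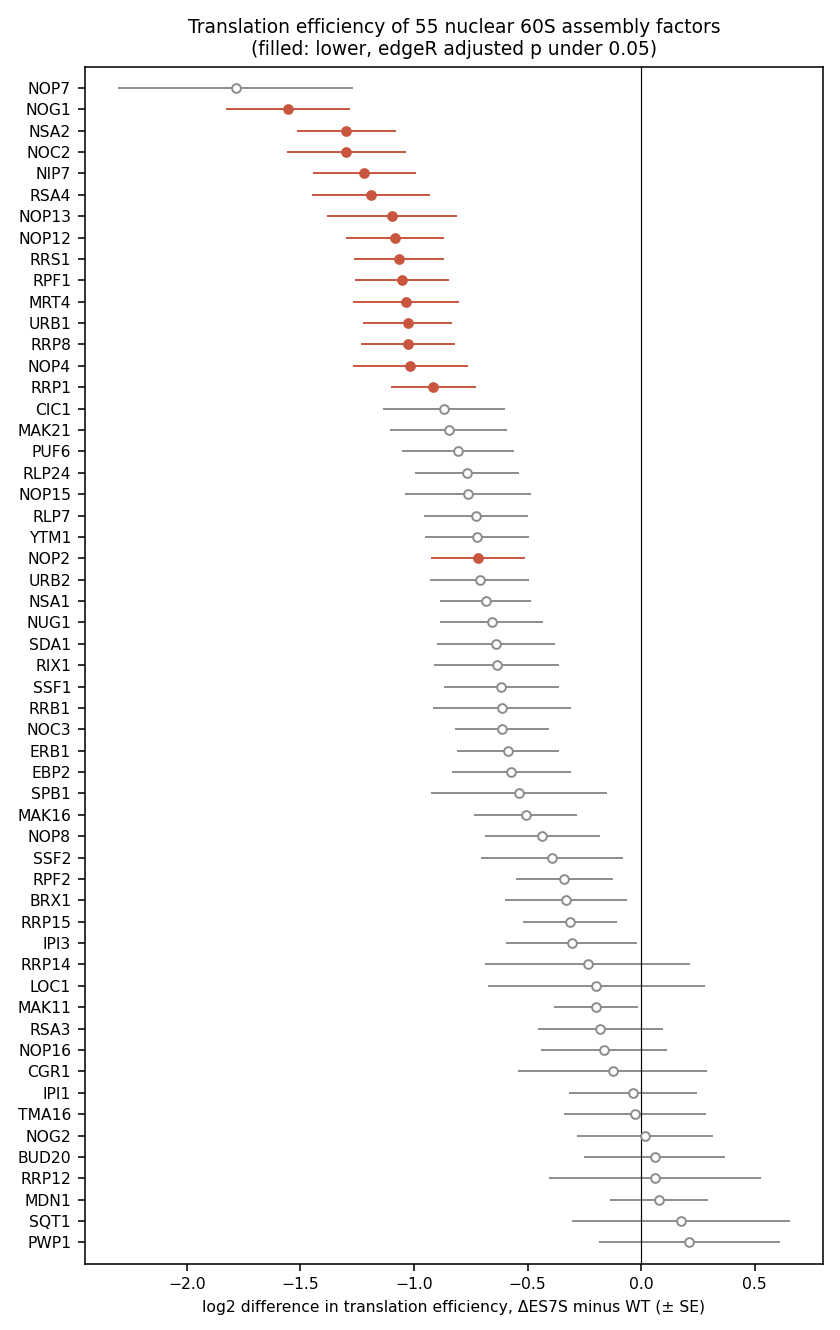
Log2 difference in translation efficiency between ΔES7S and WT (x axis, bars are SE) for each of the 55 genes in order of size; filled circles are the 15 genes past the adjusted p threshold. Values run from -1.79 (NOP7, not past the test) to 0.21 (PWP1), and 49 of 55 are below 0.

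NOP7 had the lowest value without passing (-1.79 ± 0.52, adjusted p = 0.0522), and its mRNA was uneven between libraries, with 113.8, 26.96 and 62.0 CPM in ΔES7S replicates 1 to 3, against 27.4 and 51.5 CPM in WT replicates 2 and 3. At the other end 7 genes fell in footprints with a difference in translation efficiency above -0.3. These were PWP1 (0.21), SQT1 (0.18), RRP12 (0.06), NOG2 (0.02), TMA16 (-0.03), RSA3 (-0.18) and RRP14 (-0.23), and in each of them the mRNA value was below 0 without passing the test. Without ΔES7S mRNA replicate 1 the value of SQT1 was 0.86 (adjusted p = 0.00587).

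Within each strain, footprints per mRNA were compared with those of all genes, as log2 of mean footprint over mean mRNA CPM (TMM-scaled). In ΔES7S the median of the 55 genes was -0.23, below the all-gene median of -0.02, and the middle one of the 55 stood at percentile 42.5 of 5588 genes. In WT the median was 0.55, above the all-gene median of -0.00, and the middle gene stood at percentile 72.2. Below the median of all genes were 31 of the 55 in ΔES7S and 13 in WT. The 2 assays differ in library preparation, so this ratio is relative within a strain, and the strain difference is the interaction tested above. NOG1 had -1.81 in ΔES7S and -0.26 in WT, and NOC2 0.17 in ΔES7S and 1.46 in WT. MDN1 had the lowest ratio of the 55 in both strains (-2.07 in ΔES7S, -2.14 in WT), and LOC1 and CGR1 had the highest, with 2.83 and 2.84 in ΔES7S and 3.01 and 2.94 in WT.

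**Figure D5:**
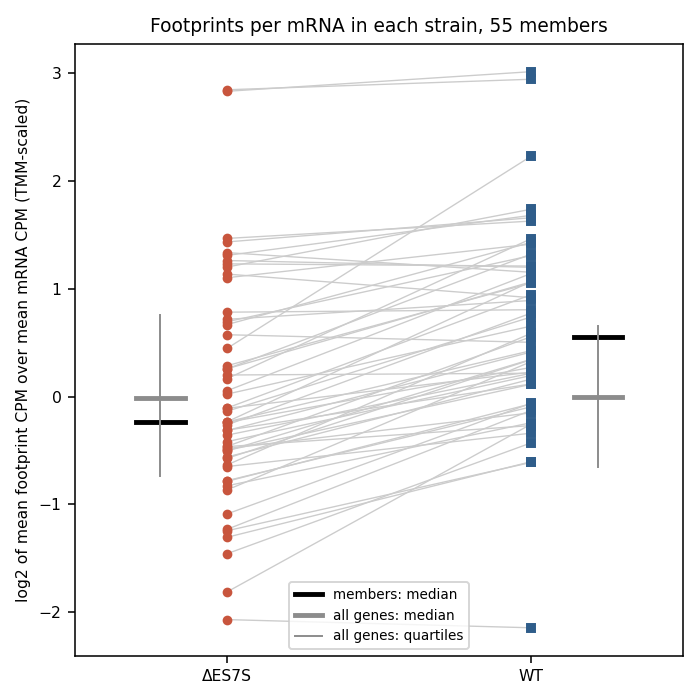
Log2 of mean footprint CPM over mean mRNA CPM (y axis, TMM-scaled) for each of the 55 genes in ΔES7S and in WT, with a line per gene; bars beside the points are the medians of the 55 genes (black) and of all genes (grey, with quartiles). The median of the 55 genes is -0.23 in ΔES7S and 0.55 in WT, while the median of all genes is near 0 in both.

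Other genes of the same pathway were read from lists chosen by function. Over all genes tested, 12.6% were lower and 14.2% higher in footprints, 4.33% lower in translation efficiency, and 1.57% lower and 1.19% higher in mRNA. Of 12 helicases of 60S assembly 9 fell in footprints and 0 rose, with a median of -0.79, led by DBP7 (-1.14 ± 0.12) and MTR4 (-1.03 ± 0.13), and 7 fell in translation efficiency. Of 18 factors of 60S export and cytoplasmic maturation 7 fell and 0 rose, with a median of -0.25. The export adaptor NMD3 had -0.98 ± 0.13 and ALB1, a partner of the export factor Arx1, had -0.97 ± 0.12. Of 40 small subunit processome factors, which build the 40S precursor in the same nucleolus, 32 fell and 0 rose, with a median of -0.66. UTP5 had -1.17 ± 0.15 and PWP2 -1.003 ± 0.126. In mRNA 0 of the 12 helicases and 0 of the 40 processome genes were called by edgeR, with 3 and 5 at an unadjusted p under 0.05, and 1 of the 18 export and cytoplasmic factors was higher (REH1, 0.89 ± 0.16). In translation efficiency 6 of the 18 export and cytoplasmic factors and 9 of the 40 processome genes fell, and 0 rose in either list. The median log2 difference was -0.83 for the helicases, -0.49 for the export and cytoplasmic factors and -0.62 for the processome genes, beside -0.64 for the 55 genes. No test was made between these lists and the 55 genes.

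Of 10 regulators of the ribosome biogenesis genes 2 fell in footprints and 0 rose, beside 12.6% lower and 14.2% higher of all genes, with a median of -0.12. In mRNA 0 of the 10 were called by edgeR, with 3 at an unadjusted p under 0.05. Their mRNA median was 0.41, 7 of 10 values were above 0, and in 5 genes every ΔES7S library lay above every WT library (16.1% of all genes). The 2 that fell in footprints were TOD6 and STB3. TOD6, a repressor that binds the PAC element of their promoters, had -0.67 ± 0.13 in footprints, and STB3, which binds their RRPE element, had -0.42 ± 0.13 in footprints. TOD6 and the kinase SCH9 fell in translation efficiency, with -1.55 ± 0.25 and -1.20 ± 0.30. The ribosomal proteins that the 55 factors assemble went the other way in footprints. Of 11 60S ribosomal proteins encoded by a single gene 6 rose and 0 fell, with a median of 0.75, led by RPL32 (1.49 ± 0.29) and RPL30 (0.92 ± 0.26). The median of these 11 genes, set against their WT mean, was 1.18, 0.69 and 0.13 in the 3 ΔES7S libraries in order and 0.04, -0.03 and -0.01 in the 3 WT libraries, whereas the 55 assembly genes lay at -0.50, -0.73 and -0.66 in the same ΔES7S libraries. In mRNA the same 11 genes had a median of 0.70, with 0 called by edgeR and 5 at an unadjusted p under 0.05.

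From the induced environmental stress response 40 genes were read, which yeast switches on while it shuts ribosome biogenesis down. Of these 20 rose in footprints and 0 fell, with a median of 0.60, beside 14.2% higher and 12.6% lower of all genes tested. HXK1, a hexokinase, had 2.12 ± 0.23 and GSY1, a glycogen synthase, had 1.75 ± 0.16. The median level of these 40 genes against their WT mean was 0.25, 0.62 and 0.90 in ΔES7S footprint replicates 1 to 3, and 0.24, 0.08 and -0.33 in WT replicates 1 to 3. WT replicate 3 had the lowest stress level and the highest share of counts on the assembly genes. ΔES7S replicate 3 had the highest stress level, but the share of the assembly genes was lowest in ΔES7S replicate 2. ΔES7S replicate 1 and WT replicate 1 had similar stress levels, with assembly gene medians of -0.50 and -0.03. In mRNA 0 of the 40 stress genes were called by edgeR, with 10 at an unadjusted p under 0.05. Their mRNA median was -0.04, with 22 values below 0 and 18 above, against 51.0% below 0 over all genes. In translation efficiency 8 of the 40 rose, beside 4.63% of all genes tested. The part of this stress signal in the fall of the assembly genes was not tested.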

How the data were processed

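The authors deposited whole-number read counts per gene for 11 libraries, named by systematic gene name. Per the labels' protocols, lysates were treated with RNase I and footprints taken from 80S ribosomes on a density gradient, total RNA was hot-phenol extracted and poly(A)-enriched, and fragments of 24 to 28 nt were amplified by PCR with no molecular identifiers named. Per the submitters' processing notes, FastQC 0.11.7 and Bowtie 1.2.3 were used; the sources used here do not name the counter, genome build, strand setting or handling of multiply mapped reads, so antisense or paralogous reads cannot be told apart.

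From these counts, genes passing filterByExpr were fitted by edgeR 4.0.16 (R 4.3.3, TMM, robust quasi-likelihood F-test, two-sided, Benjamini-Hochberg over all genes tested, threshold 0.05), over 6 footprint libraries, 5 mRNA libraries, or all 11 for the assay-by-strain interaction. The SE is the absolute log2 fold change over the square root of F. All 55 genes passed the filter in all 3 fits. The scripts were tested on simulated data. No pair of libraries of 1 group agreed within sampling noise. Gene names came from RefSeq's R64 table (5752 of 5756 matched).

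The members and lists were chosen with earlier results of these data known. Named with every library's values were, per role group, the genes with the largest and smallest absolute footprint change, up to 6 genes past the threshold with the largest change in mRNA and in translation efficiency, and SSF1 with SSF2; per other list, the 2 largest past the threshold in each comparison, of which some are left to counts. Values of NOP7 mRNA and of genes on the low side of mRNA were added after they were seen. Alternatives were RLE and upper-quartile scaling, no filter, DESeq2 1.42.0, limma-voom (limma 3.58.1), a replicate block, a joint fit, and leaving out each library. Promoter motifs and protein features were not analysed here.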

Additional observations from a re-analysis of the deposited data

How the results depend on the processing

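Footprint calls on the 55 genes stayed on 1 side: 30 to 48 lower and 0 higher over all leave-one-out fits, and 33 (joint fit) to 47 (DESeq2) lower over the others, with medians from -0.72 to -0.55. In the joint fit 33 of the 44 genes kept their edgeR call. Among the genes named with every library's values, RSA3 (adjusted p = 0.124), SQT1 (0.314), NOP13 (0.0767) and SSF2 (0.0539) lost it. Calls over all genes in footprints ran from 684 to 1749 when 1 library was left out. In mRNA, leaving out 1 library gave 0 to 15 lower and 0 to 5 higher of the 55, and 0 to 2467 calls over all genes. DESeq2 gave 1 lower, 2 higher and 1036 over all genes, limma-voom 327 over all genes, and the joint fit 2 lower, 6 higher and 1463. In translation efficiency, leaving out 1 library gave 0 to 25 lower and 0 to 3 higher of the 55, 11 to 1848 over all genes and a median of -0.75 to -0.52, and DESeq2 gave 25 lower and 903 over all genes. The cause of these moves was not tested. Where 1 WT mRNA library was left, it was assumed to vary like the ΔES7S libraries. The footprint-over-mRNA median ran from -0.30 to -0.10 in ΔES7S and from 0.37 to 0.76 in WT with 1 library left out, an alternative chosen after seeing the data.

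Whether the replicate numbers pair the libraries was not settled. Deviations of same-numbered ΔES7S and WT footprint libraries correlated at 0.01, 0.20 and 0.09 for replicates 1 to 3. Those of mRNA and footprints of the same strain and number correlated at 0.05, -0.04 and 0.43 in ΔES7S replicates 1 to 3. In WT replicates 2 and 3 they correlated at 0.19 and 0.04. Same-numbered ΔES7S and WT mRNA libraries correlated at -0.15 and -0.66 for replicates 2 and 3. WT mRNA replicate 2 correlated at 0.66 with ΔES7S mRNA replicate 3. With 2 WT mRNA libraries the deviations of 1 mirror those of the other. Some libraries correlated best with their own number and others did not. With the replicate block 46 genes were lower in footprints (1341 calls over all genes), 16 lower and 1 higher in mRNA (1924 over all genes), and 17 lower in translation efficiency (313 over all genes). ΔES7S mRNA replicate 1 has no WT library of its number, so in the mRNA block it did not bear on the strain difference. That fit nearly repeats the one without this library (median of the 55 genes -0.21 against -0.20) and is no separate result. With 2 WT mRNA libraries, mRNA and translation efficiency calls are the least certain, whereas depth was not limiting.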

Other observations

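Genes beside the assembly genes on the chromosome had footprint changes near 0 in the median. In RefSeq gene order (R64), 105 tested genes that are no members lie next to 1 of the 55, of which 15 were lower in ΔES7S footprints, 11 were higher and 79 did not pass by edgeR, with a median log2 fold change of -0.06. These counts are near the shares over all genes, 12.6% lower and 14.2% higher. Among the 26 that start back to back with an assembly gene and so share the stretch between both starts, 6 were lower (NUP85, FSF1, GCD10, PUS1, PAM18 and LCP5), 0 were higher and 20 did not pass, with a median of -0.11, beside the same 12.6% lower and 14.2% higher over all genes, and no test was made of this difference. FSF1 had -0.89 beside YTM1 at -0.87, and LCP5 had -0.90 beside NSA2 at -0.75. Some of these have roles in RNA or ribosome biogenesis themselves: LCP5 belongs to the small subunit processome, GCD10 is a subunit of a tRNA methyltransferase, and PUS1 is a pseudouridine synthase. No 2 of the 55 genes were neighbours.

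The spread between single libraries was set beside that of all genes. The highest mRNA library exceeded the lowest at least 3-fold in 8 of the 55 genes, near the 12.8% of all genes tested, and in footprints in 0, against 4.83%. The widest mRNA ranges were those of RRP12 (5.04-fold), NOP7 (4.22-fold), SQT1 (4.21-fold) and PWP1 (4.00-fold). These ranges span both strains. Their median was 1.67-fold in mRNA for the 55 genes and 1.65-fold for all genes, and 2.11-fold in footprints for the 55 genes and 1.51-fold for all genes.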
